A study of Mus musculus with 56 samples.

Results

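Accessible chromatin regions that were open mainly in granulocyte-monocyte progenitor (GMP) clones grown in GM-CSF are described here. Bulk ATAC-seq uses a transposase that inserts adapters where DNA is open, and its reads were counted in 297361 peaks of 301 bp. The raw counts of the 4 GM-CSF control libraries were pooled, those of the 24 SCF control libraries were pooled, and each pool was scaled to CPM, its counts rescaled to a total of 1000000. A peak was taken when it lay on an autosome, held 10 CPM or more in the GM-CSF pool and reached at least 4 times its CPM in the SCF pool. This rule, which selected on measured values of the control lines, took 1152 of 292001 autosomal peaks, and 16142 autosomal peaks had 10 CPM or more in the GM-CSF pool.

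All 56 libraries came from clones of mouse bone marrow cells immortalized with Hoxb8 fused to an oestrogen receptor domain (Hoxb8-ER) and kept as progenitors in 0.5 µM beta-estradiol. The paper describes these clones as derived from a mouse with floxed Tet2 alleles, while its reporting summary speaks of lines from male and female mice. Each clone, grown from 1 sorted cell, was divided into a Tet2 KO line given Cre recombinase and a control line given GFP. Both came from an integrase-defective lentiviral vector at a multiplicity of infection of 200. The 24 SCF clones (1 to 5, 7 to 18 and 23 to 29) were generated and kept in medium with about 100 ng/ml stem cell factor, and the 4 GM-CSF clones (19 to 22) in 10 ng/ml GM-CSF. Each library was made from 1000 cells. The titles of clones 20, 21 and 22 name SCF, whereas their treatment field and the design text give GM-CSF, and they were placed with GM-CSF. The paper describes the GM-CSF clones as held at a more mature stage than the SCF clones. No clone was grown in both cytokines, so the cytokine, this stage and the set of clones derived in it cannot be told apart. The p-values measure the spread between clones, not between animals.

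GM-CSF and SCF are both growth factors of myeloid progenitors. The GM-CSF receptor, a private alpha chain with the shared beta chain, signals through JAK2 to STAT5, and GM-CSF is known for driving monocyte, macrophage and granulocyte programs, whereas SCF acts through the receptor tyrosine kinase Kit on stem and progenitor cells. Enhancers of myeloid genes are typically bound by PU.1 together with C/EBP factors, AP-1 and RUNX1. Tet2 oxidises methylated cytosine and is known for acting mainly at enhancers.

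The sequences of 10 of these regions are shown, since they are among the peaks with the highest GM-CSF level, the largest GM-CSF to SCF ratio or the smallest p in the KO lines and hold a C/EBP, AP-1 or STAT consensus outside promoters. Each line gives 150 bases of the plus strand of GRCm38 (RefSeq sequence), 5′ to 3′, with capitals marking matches to the C/EBP consensus TTGCNNAA, the AP-1 consensus TGANTCA or the STAT consensus TTCNNNGAA on either strand. The gene named is the protein-coding gene with the nearest transcription start site.
Noct, chr3:51210080-51210229, intergenic: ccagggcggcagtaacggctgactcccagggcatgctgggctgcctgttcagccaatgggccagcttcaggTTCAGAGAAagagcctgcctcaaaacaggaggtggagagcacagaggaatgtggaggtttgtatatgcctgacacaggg
Cyp2w1, chr5:139364640-139364789, in an intron of 3110082I17Rik: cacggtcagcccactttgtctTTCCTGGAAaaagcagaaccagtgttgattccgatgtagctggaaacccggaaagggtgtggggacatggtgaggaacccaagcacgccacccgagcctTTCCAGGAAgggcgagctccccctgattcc
Dgkz, chr2:91972101-91972250, intron of Dgkz: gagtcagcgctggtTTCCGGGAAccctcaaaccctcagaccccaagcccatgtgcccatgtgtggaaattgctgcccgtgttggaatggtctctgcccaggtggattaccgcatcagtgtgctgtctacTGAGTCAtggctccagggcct
Sept5, chr16:18655519-18655668, intergenic: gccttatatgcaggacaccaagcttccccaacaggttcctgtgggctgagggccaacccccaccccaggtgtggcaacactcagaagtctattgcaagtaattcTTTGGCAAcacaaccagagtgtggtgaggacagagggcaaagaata
Cish, chr9:107312897-107313046, intergenic: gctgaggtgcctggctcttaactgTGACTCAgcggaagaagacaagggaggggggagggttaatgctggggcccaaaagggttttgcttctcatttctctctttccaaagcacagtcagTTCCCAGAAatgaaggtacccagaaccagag
Ptprc, chr1:137751680-137751829, intergenic: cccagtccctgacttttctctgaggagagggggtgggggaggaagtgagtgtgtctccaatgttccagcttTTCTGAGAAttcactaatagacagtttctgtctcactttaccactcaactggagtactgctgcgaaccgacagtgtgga
Tax1bp1, chr6:52861455-52861604, in an intron of Jazf1: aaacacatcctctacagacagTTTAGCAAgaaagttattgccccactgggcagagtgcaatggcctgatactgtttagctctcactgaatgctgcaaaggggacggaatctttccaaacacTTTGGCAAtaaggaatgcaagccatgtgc
Tgfbr3, chr5:107201024-107201173, intron of Tgfbr3: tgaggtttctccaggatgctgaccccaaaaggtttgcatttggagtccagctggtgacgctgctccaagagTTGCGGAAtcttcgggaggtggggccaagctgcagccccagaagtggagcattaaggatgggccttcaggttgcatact
Lpin1, chr12:16620204-16620353, intergenic: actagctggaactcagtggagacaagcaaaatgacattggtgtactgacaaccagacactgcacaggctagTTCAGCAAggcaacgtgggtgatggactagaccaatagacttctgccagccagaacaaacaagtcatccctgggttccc
Alcam, chr16:52371956-52372105, intron of Alcam: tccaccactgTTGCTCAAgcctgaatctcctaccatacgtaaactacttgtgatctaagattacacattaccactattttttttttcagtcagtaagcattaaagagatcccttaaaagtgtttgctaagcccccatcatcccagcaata
The Cyp2w1 window holds 2 STAT matches and the Jazf1 window 2 C/EBP matches. The Cish and Dgkz windows hold an AP-1 and a STAT match each. A match is a run of letters and not a measured binding site.

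Depth differed between the GM-CSF clones. Control libraries of clones 19, 20, 21 and 22 held 114885, 88234, 543364 and 766838 counts, and the KO libraries 40876, 39379, 468878 and 437883. Clones 21 and 22 therefore gave 35.9% and 50.7% of the GM-CSF control pool, and 1 count was worth 8.70 CPM in control 19, 11.3 in control 20, 24.5 in KO 19 and 25.4 in KO 20, against 1.30 to 2.28 CPM in the lines of clones 21 and 22. SCF control libraries ranged from 102302 to 1042973 counts. GMP marker genes (11, among them Mpo, Elane, Cebpa, Spi1 and Kit) all had counts at a promoter peak, with a summed 136 to 213 CPM in GM-CSF controls and 168 to 358 CPM in SCF controls. The 86 peaks nearest to Tet2 summed to 170 to 209 CPM in GM-CSF controls and 171 to 235 CPM in GM-CSF KO lines, and to 117 to 226 and 127 to 207 CPM in SCF, and since none is known to lie on the deleted part they check nothing about the genotype. Promoter peaks of 4 T cell markers summed to 0 to 17.4 CPM in GM-CSF controls. Those of 4 B cell, 2 erythroid and 4 epithelial markers summed to 6.52 to 11.3, 0 to 11.3 and 7.82 to 11.3 CPM there. The 4 fibroblast markers were highest of these sets, at 18.4 to 34.8 CPM. The Mpo promoter, of the myeloperoxidase gene, held 3.96 CPM in the GM-CSF and 35.5 CPM in the SCF control pool, and the Kit promoter 8.59 and 52.9 CPM. Counts per gene of controls 19 and 20 differed by little more than sampling noise (chi-square divided by its degrees of freedom 1.05, p = 0.00181, 7461 genes). Those of KO 19 and KO 20 did not differ beyond it (1.03, p = 0.126, 2203 genes), so results are also given without these clones. The other GM-CSF pairs had 1.07 (KO 21 and KO 22) to 1.19 (controls 20 and 22), over 12418 to 15815 genes. At few counts a difference is harder to see, so these values do not set clones 19 and 20 apart.

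The levels that chose the peaks were as follows. In the GM-CSF control pool the 1152 peaks held 10.6 to 73.3 CPM (median 14.5), which is 16 to 111 counts each. In the SCF control pool they held 0.368 to 14.4 CPM (median 2.30). The ratio of the pools ran from 4.01 to 36.0 (median 6.22), with 345 peaks at 8 times or more and 272 at 20 CPM or more in GM-CSF. In the SCF pool 0 of them had under 3 counts, and 76 held 5 CPM or more. For scale, the median over all autosomal peaks away from promoters was 1.29 CPM in the SCF pool. Just inside the level threshold, at 16 counts or 10.6 CPM, lay peaks near Hsfy2, Nrp2 and Pid1, and just outside it, at 15 counts or 9.91 CPM, peaks near Rab23, Uxs1 and Vwc2l. Just inside the ratio threshold lay peaks near E230025N22Rik, Gsap and Nelfa (4.01 to 4.02 times), and just outside it peaks near Cd33, Pld1 and Fam83c (3.99 to 4.00 times). A median member thus rests on 22 GM-CSF counts, so that single peaks are measured coarsely.

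Counts of these peaks came from several clones. A count was present in all 4 GM-CSF control libraries for 584 peaks, in 3 for 461 and in 2 for 107. Control 22 had a count in all 1152 peaks and control 21 in 1150, whereas the shallow controls 19 and 20 had one in 879 and 752. The summed level of the 1152 peaks was 16068, 15561, 19631 and 20655 CPM in controls 19, 20, 21 and 22, and 2258 (clone 29) to 5300 CPM (clone 27) in SCF controls, with a median of 2952 CPM. Every GM-CSF control lay at 5.27 to 7.00 times the SCF median, which the rule itself required of their pool. Spread over 301 bp peaks, this was 13.5 to 17.9 CPM a peak in GM-CSF controls and 1.96 to 4.60 CPM in SCF controls.

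**Figure D1:**
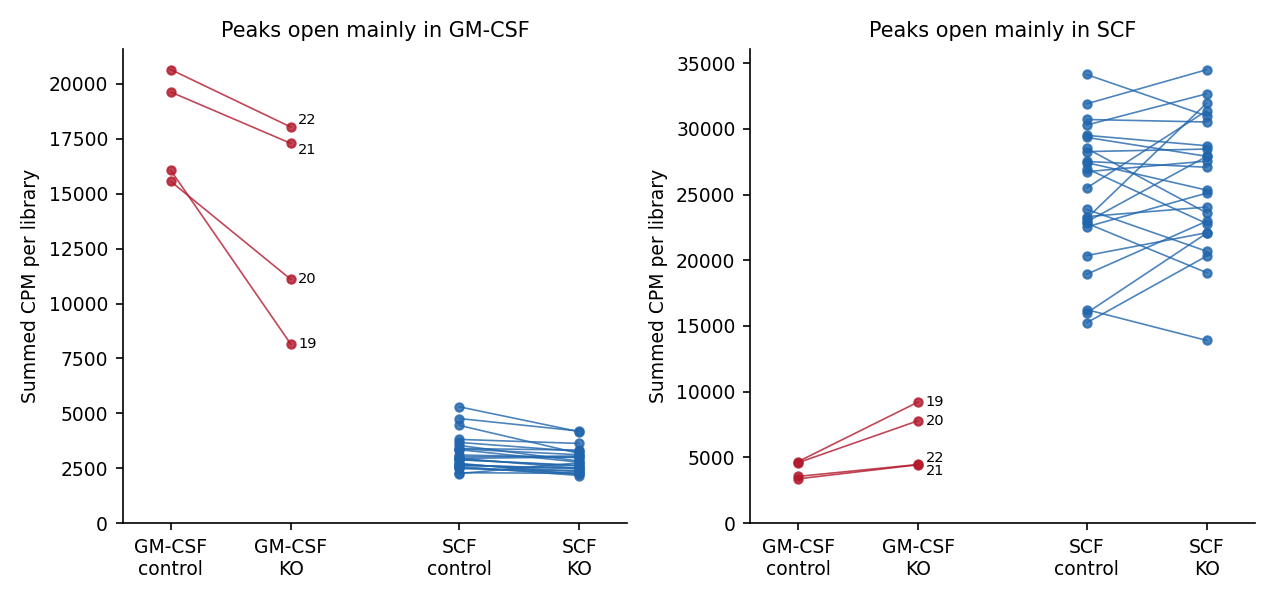
Summed CPM per library over the 1152 peaks open mainly in GM-CSF (left) and, for comparison, over the 1372 autosomal peaks that met the same thresholds in the opposite direction (right). Each point is 1 library, lines join sister control and KO lines, and the GM-CSF clones are numbered. On the left all 8 GM-CSF libraries lie above all SCF libraries, with KO 19 and KO 20 lowest among them.

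The peaks lay mostly away from promoters. A promoter peak was one centred within 1 kb of the start of any annotated transcript. By this measure 142 of the 1152 peaks (12.3%) were at promoters, 575 (49.9%) in introns, 360 (31.2%) between genes, 32 (2.78%) on coding exons and 43 (3.73%) on other exons. Among all 16142 peaks with 10 CPM or more in GM-CSF controls, promoters made up 61.0%, and among all autosomal peaks 11.5%. The 1372 peaks open mainly in SCF held 21.0% promoters. The median distance to the nearest start site of a protein-coding gene was 17165 bp, against 304 bp over the 16142 peaks and 21002 bp over all autosomal peaks. Peaks more than 100 kb from such a start made up 8.94%, against 2.955% of the 16142 peaks, 17.1% of the peaks open mainly in SCF and 15.7% of all autosomal peaks. The median GC content was 51.5% with 5 CpG dinucleotides a peak, compared with 60.1% and 18 over the 16142 peaks and 50.5% and 4 over all autosomal peaks. These shares are descriptions, with no test.

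**Figure D2:**
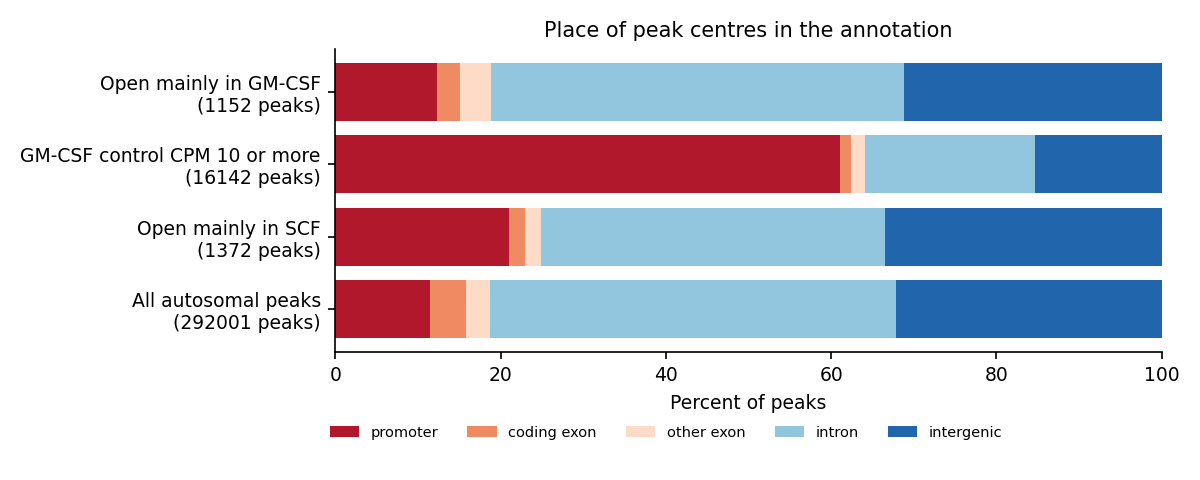
Place of peak centres in the GENCODE vM21 basic annotation, as percent of each set of peaks. The peaks open mainly in GM-CSF have 12.3% at promoters and 49.9% in introns, close to the shares of all autosomal peaks (11.5% and 49.1%), whereas 61.0% of all peaks with 10 CPM or more in GM-CSF controls are at promoters.

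All 19 autosomes carried members. Members away from promoters made up a share of all such GM-CSF peaks of 10 CPM or more that ran from 12.0% on chromosome 17 to 22.9% on chromosome 13. The share of all counts on each chromosome in the deep libraries of clones 21 and 22 stayed within 0.972 and 1.04 times the SCF median, so no autosome stood out as gained in these clones. The peaks were nearest to 992 protein-coding genes, which is 9.84% of the 10077 genes nearest to any GM-CSF peak of 10 CPM or more. Of these genes, 863 had 1 member, 103 had 2, 21 had 3 and 5 had 4, and 130 members had another within 10 kb.

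The genes with 4 members were Actn1, Amotl2, Lipg, Mical3 and Rapgef5. Actn1 codes for alpha-actinin, which crosslinks actin filaments, and its members were the promoter peak at 50.2 CPM in the GM-CSF and 8.82 CPM in the SCF control pool and a group of 3 intronic peaks, at 10.6 to 14.5 CPM in GM-CSF and 1.56 to 2.57 CPM in SCF. Amotl2, of the angiomotin family of junction proteins, also combined its promoter (33.0 and 6.06 CPM) with 3 lower peaks at 11.2 to 16.5 CPM in GM-CSF. Rapgef5, a guanine nucleotide exchange factor of Rap proteins, had 3 members in its introns and 1 upstream, at 12.6 to 24.4 CPM in GM-CSF. For Mical3, a flavin monooxygenase of the actin cytoskeleton, the members lay in its introns and at an internal promoter, at 11.2 to 22.5 CPM in GM-CSF. Lipg, endothelial lipase, had its promoter and 3 distal peaks at 13.2 to 17.8 CPM.

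C/EBP consensus letters were found in a larger share of these peaks than of the comparison sets. Both strands of each 301 bp peak were searched for 20 short consensus strings, and shares were compared among peaks away from promoters, without a test. The C/EBP string TTGCNNAA was present in 33.5% of the 1010 members away from promoters, 20.1% of the other 5269 GM-CSF peaks of 10 CPM or more there, 13.1% of 1084 peaks open mainly in SCF and 13.6% of all 258430 autosomal peaks away from promoters. The AP-1 string TGANTCA, bound by FOS, JUN and BATF dimers, followed at 20.9%, against 17.0%, 13.0% and 12.8% in the same sets. The string TGATGNAA, of C/EBP paired with ATF4, was present in 9.21%, 6.68%, 4.06% and 4.77%. The STAT string TTCNNNGAA was present in 12.5%, 8.96%, 7.29% and 8.96%. The string TTANGTAA of HLF and NFIL3 was present in 4.16%, 2.20%, 2.12% and 2.51%.

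Several other strings did not follow this order. GAGGAAGT of PU.1 was in 10.9% of the distal members, above the 7.05% of all distal peaks and below the 12.7% of the other GM-CSF peaks. TGTGGTT of RUNX was in 11.4%, 14.7%, 28.0% and 11.0% of the same sets in the order given above, and AGATAAG of GATA in 2.08%, 2.68%, 13.9% and 4.13%, so for both the peaks open mainly in SCF had the highest share. The CTCF core CNAGNGGGC was in 2.97%, 9.28%, 5.54% and 4.93%. The KLF string GGGNGTGG was in 14.3%, 16.9%, 13.7% and 11.0%, and the ETS string CCGGAAG in 5.05%, 5.79%, 4.06% and 2.21%. The remaining strings were found in 0.792% to 9.01% of the distal members and 0.385% to 9.98% of all distal peaks, namely GAAANNGAA of IRF, GGGNNTTCC of NF-kB, AACNGTT of MYB, TCACGTG of TFE factors, GTGGGCG of EGR, AGGTCANAG of nuclear receptors, TGCTGANTC of MAF, TGATTNAT of HOX with PBX and TGACGTCA of CREB. Among the 142 promoter members the C/EBP string was found in 26.1%.

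Of all 1152 members, 375 (32.6%) held a C/EBP match, against 13.2% of all autosomal peaks, and 70 (6.08%, against 1.73%) held both a C/EBP and an AP-1 match. A C/EBP, AP-1, PU.1 or STAT match was present in 674 members (58.5%, against 34.9%). The C/EBP matches were spread along the peak: the median distance from the peak centre was 67.5 bases in members and in all autosomal peaks, and 39.2% and 37.9% of the peaks with a match had one within 50 bases of the centre. In 7 members a C/EBP match overlapped a MYB match, in 4 an IRF match, in 2 each an AP-1 or MAF match and in 1 each a PU.1 or RUNX match.

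**Figure D3:**
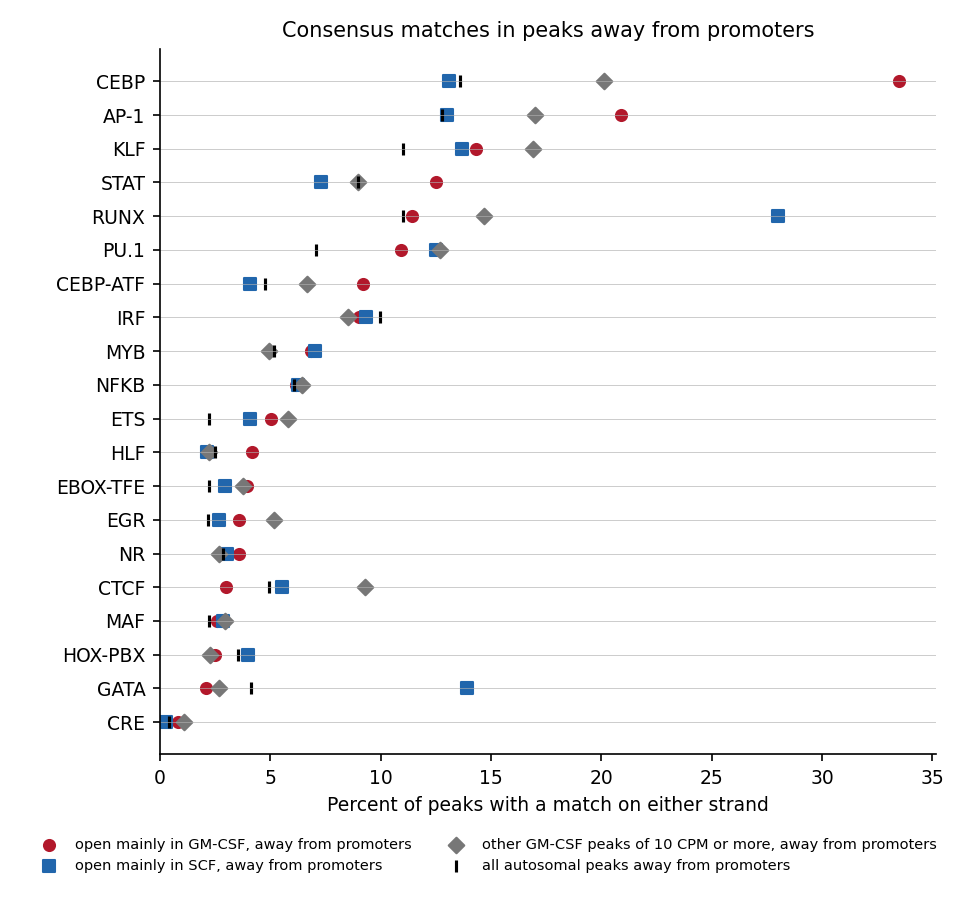
Percent of peaks away from promoters with a match to each of 20 consensus strings on either strand, in peaks open mainly in GM-CSF, in peaks open mainly in SCF, in the other GM-CSF peaks of 10 CPM or more and in all autosomal peaks. The C/EBP share is 33.5% in peaks open mainly in GM-CSF and 13.1% in those open mainly in SCF, while RUNX (11.4% and 28.0%) and GATA (2.08% and 13.9%) show the opposite order.

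The KO lines gave the same measure in libraries that the rule had not used. Pooled as before, the GM-CSF KO lines stood at 4 times or more the SCF KO lines in 874 of the 1152 peaks (75.9%), at 2 times or more in 1100 (95.5%) and higher in 1145 (99.4%), with a median ratio of 5.96. The background was 6.88% at 4 times or more among the 16142 GM-CSF peaks of 10 CPM or more, and 1.58% when the members were left out of them, with a median ratio of 0.984 over the 16142. The share was 73.2% for promoter members and 76.2% for those away from promoters. Of members with a C/EBP match it was 79.2%, and of those without 74.3%. Clones 21 and 22 were also read alone: KO 21 reached 4 times the SCF KO pool in 826 peaks (71.7%) and KO 22 in 858 (74.5%), with 691 (60.0%) in both and 159 (13.8%) in neither. Over the 16142 peaks, members included, these shares were 6.98%, 7.47%, 5.14% and 90.7%. KO lines are sisters of the control lines that chose the peaks, so they are not independent clones.

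**Figure D4:**
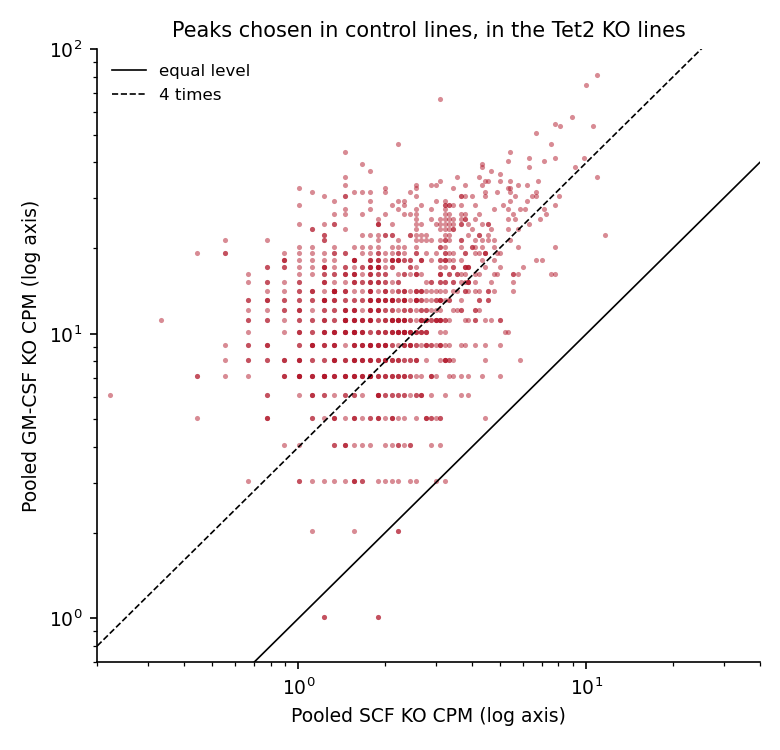
Pooled GM-CSF KO CPM against pooled SCF KO CPM on log axes for the 1152 peaks, which were chosen on control lines. Most points (1145) lie above the line of equal level and 874 on or above the dashed line of 4 times.

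Across peaks, KO lines in GM-CSF and in SCF were compared with the quasi-likelihood test of edgeR (4 against 24 libraries, adjusted p at or under 0.01 over the 73777 peaks with 20 or more counts in these libraries). Of 1026 members tested, 635 (61.9%) were higher in GM-CSF and 0 lower, against 1.89% higher and 1.57% lower over all peaks tested. The fold was positive in 1023 of them, and the median log2 difference was 2.35, against -0.14 over all peaks tested and -0.04 over the GM-CSF peaks of 10 CPM or more. The filter itself cannot be passed by some members without their GM-CSF counts. Among the 539 members with 20 or more counts in the SCF KO libraries alone, 286 (53.1%) were higher, compared with 1.16% of the 61534 peaks of that depth. Calls rested on the deep libraries: 222 of 850 members tested were called without clone 21 and 231 of 858 without clone 22. Over all peaks tested, 328 of 67783 and 326 of 68096 were higher there. Without clones 19 and 20, 656 of 1016 members were called (1667 of 72553 peaks higher). With the counts of those 2 clones summed as 1 library, 633 members were called (1396 of 73777 peaks higher). With SCF clones 23 to 29 as the only SCF libraries 415 of 543 tested were called (990 of 29150 peaks higher). DESeq2 called 361 members (778 peaks higher in all).

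The peak with the highest GM-CSF level lay 14.3 kb upstream of Noct, which codes for nocturnin, a phosphatase of NADP cofactors under circadian control. It held 69.6, 56.7, 69.9 and 78.2 CPM in controls 19, 20, 21 and 22, and 1.61 to 37.1 CPM (median 13.9) in SCF controls. In the KO lines it held 48.9, 102, 91.7 and 70.8 CPM, against 0 to 30.7 CPM (median 9.92) in SCF. No SCF library reached a GM-CSF library of its genotype, and the log2 difference between KO lines was 2.77 ± 0.30 (SE, adjusted p = 1.57e-16, edgeR). The peak was open at a lower level in most SCF clones. Here and below, control values chose the peaks, so a separation of control groups follows largely from the rule and is a description.

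The peak 25.6 kb upstream of Sept5, a filament-forming septin GTPase, was low in SCF. It held 43.5, 79.3, 55.2 and 45.6 CPM in GM-CSF controls and 24.5, 50.8, 64.0 and 75.4 CPM in GM-CSF KO lines. SCF controls had 0 to 14.0 CPM (median 1.54) with 11 of 24 at 0, and SCF KO lines 0 to 13.2 CPM (median 2.27). The groups did not overlap in either genotype, with a log2 difference of 4.13 ± 0.37 between KO lines (adjusted p = 1.60e-23, edgeR). KO 19 and KO 20 held 1 and 2 counts, however, and any count in these libraries lies above the SCF KO range.

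A peak in an intron of Hivep3, a zinc finger transcription factor gene, with AL607142.1 as the nearest start site, showed the same pattern. Its GM-CSF control values were 34.8, 79.3, 35.0 and 44.3 CPM, its GM-CSF KO values 24.5, 50.8, 46.9 and 48.0 CPM, and its SCF values 0 to 9.43 CPM in controls and 0 to 10.2 CPM in KO lines. The log2 difference between KO lines was 4.10 ± 0.43 (adjusted p = 4.08e-17). Again no SCF library reached a GM-CSF library, but KO 19 and KO 20 held only 1 and 2 counts.

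A peak on a coding exon of March4, a membrane-bound ubiquitin ligase gene, held 34.8, 22.7, 27.6 and 28.7 CPM in GM-CSF controls and at most 9.35 CPM in SCF controls. The KO lines in GM-CSF had 24.5, 0, 44.8 and 48.0 CPM, and those in SCF at most 7.39 CPM, so KO 20, where 1 count is worth 25.4 CPM, was the only GM-CSF library within the SCF range. The log2 difference of 4.47 ± 0.46 between KO lines (adjusted p = 6.18e-18) placed it among the 10 members with the smallest p. It reached the minimum of 20 counts only with its GM-CSF counts, since the SCF KO libraries held 13 in all. The others of those 10 were the Noct, Sept5 and Hivep3 peaks above, the Actn1 promoter, and peaks near Snx24, Nfil3, Arhgap26, in Jazf1 and in Kif1a, with log2 differences of 2.68 to 4.53. In 6 of the 10, namely March4 and those near Snx24, Nfil3 and Arhgap26 and in Jazf1 and Kif1a, the SCF KO libraries held 9 to 16 counts, so these too passed the filter only through the GM-CSF libraries.

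The remaining peaks of high GM-CSF level were open in SCF as well, at 8.27 to 11.8 CPM in the control pool. They lay in introns of Fam222b and of Dgkz, which codes for a diacylglycerol kinase, near Tnfrsf21 (death receptor 6), Sik1 (a salt-inducible kinase), Cyp2w1 (a cytochrome P450) and Ptprc (the leukocyte antigen CD45), in an intron of Cdk6 (a cyclin-dependent kinase), and at the promoters of Actn1 and Fcor (a corepressor of Foxo1). Their GM-CSF control pools were between 46.9 and 60.1 CPM, and each was higher in GM-CSF KO lines with log2 differences of 1.61 to 2.68. The call of the Cyp2w1 peak was lost without clone 21 (adjusted p = 0.124, edgeR) or clone 22 (0.0536), and that of Fcor without clone 22 (0.0362). The Ptprc peak, 423 kb from the start of that gene, was the steadiest across lines: 52.2, 34.0, 49.7 and 45.6 CPM in controls and 48.9, 50.8, 51.2 and 57.1 CPM in KO lines. No SCF library reached these values in the same genotype, where the highest were 28.0 CPM in controls and 20.3 CPM in KO lines. KO 19 and KO 20 held 2 counts each, however, and any count in these libraries lies above 20.3 CPM. The Ptprc promoter itself was lower in GM-CSF, with 3.96 and 7.90 CPM in the GM-CSF and SCF control pools and 4.05 and 6.11 CPM in the KO pools.

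The exception among the peaks of highest level was that of Cish, which codes for CIS, an inhibitor of cytokine receptor signalling that STAT5 induces. The peak 16.3 kb downstream of the Cish start held 43.5, 45.3, 53.4 and 45.6 CPM in GM-CSF controls and 0 to 21.2 CPM (median 10.1) in SCF controls. In the KO lines it held 0, 25.4, 17.1 and 29.7 CPM in GM-CSF and 0 to 23.5 CPM (median 10.3) in SCF. The control groups, whose values chose the peak, did not overlap, but the KO groups did. The log2 difference between KO lines was 0.91 ± 0.42 (adjusted p = 0.21, edgeR). Cish had 2 further members at 12.6 and 10.6 CPM in the GM-CSF control pool and 1.01 and 1.19 CPM in the SCF pool.

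The largest ratio was in an intron of Tgfbr3, which codes for betaglycan, a co-receptor of TGF-beta. This peak held 8.70, 22.7, 33.1 and 31.3 CPM in GM-CSF controls and was at 0 in 15 of 24 SCF controls, of which the highest had 9.77 CPM. In KO lines it held 0, 0, 19.2 and 32.0 CPM in GM-CSF and at most 7.69 CPM in SCF, a log2 difference of 3.92 ± 0.55 (adjusted p = 8.20e-10). The 2 deep GM-CSF KO lines were above the SCF lines and the 2 shallow ones had no count. With 10 counts in all SCF KO libraries, it too reached the minimum of 20 only through the GM-CSF libraries. The other members of largest ratio, from 23.0 to 34.2 times, lay near Cass4, Cd38 (an enzyme that consumes NAD), Arhgap26, Sh2d7, Fam169b, 2010111I01Rik, Lpin1 (a phosphatidate phosphatase) and Alcam (the adhesion molecule CD166) and in an intron of Atp8a2. They held 10.6 to 27.1 CPM in the GM-CSF control pool and 0.368 to 1.01 CPM, which is 4 to 11 counts, in the SCF pool.

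Lists of genes follow, each to be read against 9.84% of genes with a GM-CSF peak of 10 CPM or more that had a member, and against 1.89% of all peaks and 61.9% of all members tested that were higher in GM-CSF KO lines. Some genes of the neutrophil program had members. Of 24 genes listed, 19 were nearest to a GM-CSF peak of 10 CPM or more, and 7 of those had a member: Camp (cathelicidin), Ngp, S100a8 and S100a9 (the subunits of calprotectin), Ly6g, Fcnb (ficolin B) and Lyz2 (lysozyme). Listed genes without a member went both ways at their promoters. Mpo (3.96 against 35.5 CPM) and Ctsg (19.2 against 26.0 CPM) were lower in the GM-CSF than in the SCF control pool. Elane (8.59 against 5.51 CPM), Prtn3 (9.25 against 7.08 CPM) and Ms4a3 (50.2 against 16.2 CPM) were higher. Of their 9 members, all tested, 5 were higher in GM-CSF than in SCF KO lines, with a median log2 difference of 2.32 over the 9, against 1.89% and -0.14 over all peaks tested. The calls of S100a8, S100a9 and Fcnb reached the minimum of 20 counts only through the GM-CSF libraries, and of the 4 members with 20 or more counts in the SCF KO libraries alone 2 were higher.

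The S100a8 promoter held 17.4, 0, 25.8 and 33.9 CPM in GM-CSF controls and 0 to 13.0 CPM (median 3.34) in SCF controls. In KO lines it held 24.5, 25.4, 19.2 and 25.1 CPM in GM-CSF and 0 to 8.79 CPM (median 0) in SCF, a log2 difference of 3.17 ± 0.52 (adjusted p = 4.05e-07). Apart from control 20, where 0 was counted, the groups did not overlap. KO 19 and KO 20 held 1 count each, however, and any count in these libraries lies above the SCF KO range. The S100a9 promoter held 17.4, 22.7, 12.9 and 24.8 CPM in GM-CSF controls, and 15 of 24 SCF controls were at 0. The highest SCF control, clone 27, had 17.4 CPM, above GM-CSF control 21 and level with control 19, so the control groups overlapped. Its log2 difference between KO lines was 4.29 ± 0.53 (adjusted p = 1.78e-12), with KO 21 and KO 22 at 32.0 and 29.7 CPM and KO 19 and KO 20 at 0. DESeq2 did not call it (adjusted p = 0.108).

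Promoters of Camp and Fcnb and a peak 4.31 kb from Ngp were also higher in GM-CSF KO lines (log2 2.32, 2.49 and 2.82). The Camp promoter had counts only in clones 21 and 22 among GM-CSF lines, with 22.1 and 20.9 CPM in controls and 21.3 and 27.4 CPM in KO lines, against a highest 13.2 CPM in SCF KO lines. These calls depended on single clones: Camp was lost without clone 21 or 22 (adjusted p = 0.0225 and 0.0986), Fcnb likewise (0.189 and 0.0465) and Ngp without clone 21 (0.0984), and DESeq2 called neither Fcnb (0.0321) nor Ngp (0.0439). Peaks near Ly6g and Lyz2 had log2 differences of 1.76 (adjusted p = 0.13) and 0.79 (adjusted p = 0.66).

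Monocyte and macrophage genes gave 10 genes with a member of 20 with a GM-CSF peak of 10 CPM or more, from a list of 29. They were Ly6c2, Cx3cr1, Mpeg1, Ly86, Zeb2, Gpnmb, Cd36, Pparg, C5ar1 and F10. Of 11 members, 8 were tested and 2 were higher in GM-CSF KO lines, with a median log2 difference of 1.82 over the 8. Over all peaks tested 1.89% were higher with a median of -0.14, and over all members tested 61.9% with a median of 2.35. Members of this list were thus called less often than members in general, on few peaks. Of the 5 with 20 or more counts in the SCF KO libraries alone, 1 was higher.

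The member with the highest level in this list was the promoter of F10, which codes for coagulation factor X. It held 43.5, 68.0, 47.9 and 44.3 CPM in GM-CSF controls, against 0 to 19.3 CPM (median 5.24) in SCF controls, and 24.5, 25.4, 27.7 and 54.8 CPM in GM-CSF KO lines, against 0 to 26.4 CPM (median 2.55) in SCF KO lines. The control groups, whose values chose the peak, did not overlap, whereas SCF KO 14, at 26.4 CPM, lay above KO 19 and KO 20. The log2 difference between KO lines was 2.99 ± 0.41 (adjusted p = 5.74e-10). The other call was an intronic peak of C5ar1, the receptor of complement C5a, with a log2 difference of 2.91 ± 0.54 (adjusted p = 1.17e-05), lost without clone 21 (adjusted p = 0.0377). It reached the minimum only through the GM-CSF libraries, with 19 counts in SCF KO lines.

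At the Ly6c2 promoter GM-CSF control values scattered from 11.3 to 52.2 CPM, and the log2 difference between KO lines of 1.78 did not pass (adjusted p = 0.015). Members nearest to Cx3cr1 (the fractalkine receptor, 18.6 kb from its start), Mpeg1 (perforin-2, 15.6 kb), Ly86 (130 kb) and Gpnmb (8.38 kb) had log2 differences of 1.12 to 2.11 without passing. The promoter of Pparg, the nuclear receptor known for alveolar macrophages, held 0, 11.3, 22.1 and 10.4 CPM in GM-CSF controls and at most 6.78 CPM in SCF controls. It was too low in KO lines to be tested, as were the intronic members of Cd36 (a scavenger receptor) and Zeb2.

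Members of the GM-CSF and STAT5 list were nearest to receptor, feedback and survival genes, some of them at a distance. All 16 genes listed had a GM-CSF peak of 10 CPM or more and 6 had a member: Csf2ra, Cish, Socs1, Pim1, Mcl1 and Osm. Of 8 members, 7 were tested and 4 were higher in GM-CSF KO lines (median log2 difference 1.99). Over all peaks tested 1.89% were higher (median -0.14) and over all members tested 61.9% (median 2.35), so this list did not exceed members in general. Of its 4 members with 20 or more counts in the SCF KO libraries alone, 3 were higher. The promoter of Csf2ra, the GM-CSF receptor alpha chain, held 17.4, 22.7, 22.1 and 23.5 CPM in GM-CSF controls and 0 to 11.6 CPM (median 5.46) in SCF controls. In KO lines the values were 0, 0, 23.5 and 27.4 CPM in GM-CSF and 0 to 6.69 CPM in SCF, a log2 difference of 2.59 ± 0.49 (adjusted p = 1.91e-05), which missed the threshold without clone 21 (0.0105) or clone 22 (0.0281). All GM-CSF controls and both deep GM-CSF KO lines were above every SCF line of their genotype. For the controls this follows largely from the rule, and controls 19 and 20 held 2 counts each.

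A peak 6.26 kb upstream of Mcl1, an anti-apoptotic member of the Bcl2 family, held 24.5, 25.4, 34.1 and 32.0 CPM in GM-CSF KO lines and at most 8.56 CPM in SCF KO lines (log2 difference 3.05 ± 0.45, adjusted p = 7.89e-09). Its GM-CSF controls held 0, 11.3, 16.6 and 30.0 CPM, so that control 19 lay within the SCF control range of 0 to 8.38 CPM. KO 19 and KO 20 held 1 count each at this peak, and any count in these libraries lies above the SCF KO range. Peaks near Socs1, an inhibitor of JAK kinases, and Pim1, a kinase induced by STAT5, were higher in GM-CSF KO lines by 1.99 and 2.60 on the log2 scale. Socs1 was not called without clone 21 (adjusted p = 0.292) or 22 (0.133) or by DESeq2 (0.0555), and Pim1, with 12 counts in SCF KO lines, not without clone 22 (0.0102) or by DESeq2 (0.017). The member at Osm, the cytokine oncostatin M, had a log2 difference of 1.42 (adjusted p = 0.26).

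Of the transcription factor genes of the myeloid list (30, all with a GM-CSF peak of 10 CPM or more), 9 were nearest to a member: Spi1 (PU.1), Cebpb (C/EBP beta), Klf7, Egr1, Fosl2 (an AP-1 subunit), Bhlhe40, Tfec, Rxra and Ahr. Of 11 members, 10 were tested and 6 were higher in GM-CSF KO lines, with a median log2 difference of 2.14. Over all peaks tested 1.89% were higher (median -0.14) and over all members tested 61.9% (median 2.35), so this list did not exceed members in general. Of its 7 members with 20 or more counts in the SCF KO libraries alone, 5 were higher. An intronic peak of Spi1 held 8.70, 0, 14.7 and 17.0 CPM in GM-CSF controls, and SCF controls reached 26.1 CPM in clone 27, above all 4 of them. In KO lines it held 48.9, 0, 21.3 and 29.7 CPM in GM-CSF and 0 to 14.4 CPM in SCF (log2 difference 2.94 ± 0.49, adjusted p = 5.49e-07). The Spi1 promoter, in contrast, held 21.8 and 23.2 CPM in the GM-CSF and SCF control pools. A peak 1.16 kb from Cebpb, in an intron of Tmem189, held 26.1, 22.7, 23.9 and 27.4 CPM in GM-CSF controls and 0 to 19.6 CPM (median 5.40) in SCF controls, with a log2 difference between KO lines of 2.44 ± 0.48 (adjusted p = 5.41e-05, and 0.0199 without clone 22). The 4 GM-CSF controls, whose pool chose the peak, were above all SCF controls, with 3 and 2 counts in controls 19 and 20. Members nearest to Klf7 (the higher 180 kb away, in an intron of Gm28981), Egr1 (25.0 kb away) and Rxra (3.77 kb away) were also called. Without clone 22 the higher Klf7 peak (adjusted p = 0.0626), Egr1 (0.309) and Rxra (0.346) were not, and without clone 21 Egr1 (0.0134) and Rxra (0.0374) were not, nor did DESeq2 call these 2 (0.0729 and 0.011). Egr1 held 18 counts in SCF KO lines. Members nearest to Ahr (150 kb away), Bhlhe40 (90.1 kb) and Fosl2 (2.76 kb) had log2 differences of 1.77, 2.01 and 1.81 and did not pass (adjusted p = 0.067 to 0.12).

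Phagocyte oxidase and receptor genes had members at 4 of 11 genes. Among them were Cyba (a subunit of the NADPH oxidase) and the Fc receptor genes Fcgr3 and Fcgr4. Of 6 members, 2 passed, against 1.89% of all peaks and 61.9% of all members tested, so fewer than among members in general. The peak 1.09 kb from the Fcgr4 start held 26.1, 45.3, 29.4 and 33.9 CPM in GM-CSF controls and 0 to 26.1 CPM (median 7.94) in SCF controls, with a log2 difference of 1.72 ± 0.43 between KO lines (adjusted p = 0.00286). In KO lines it held 0, 0, 25.6 and 32.0 CPM in GM-CSF and up to 26.4 CPM in SCF, so these groups overlapped. Its call was lost without clone 21 (adjusted p = 0.105) or 22 (0.27) and with DESeq2 (0.0273). SCF control 27 and GM-CSF control 19 both stood at 26.1 CPM, so the control groups met there. A peak 5.18 kb from Cyba was the other call, at 2.14 ± 0.56 (adjusted p = 0.00451), lost without clone 20 (0.0161) or 22 (0.421).

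Lipid mediator genes had members at 3 of 9 genes. Those at Ltc4s (leukotriene C4 synthase) and Ptgs1 (cyclooxygenase 1) were higher in GM-CSF KO lines by 2.10 and 3.26 on the log2 scale, and that near Ptges (prostaglandin E synthase) had 2.14 (adjusted p = 0.042). Ltc4s was not called without clone 21 (adjusted p = 0.134) or 22 (0.0597), and Ptgs1 held 19 counts in SCF KO lines. Innate sensing and inflammation genes had members nearest to Tlr4, Il1rn and Ccl6, 3 of 19 genes, and those of Tlr4 and Ccl6 passed among 3 members tested of 4. Neither passed without clone 22 (adjusted p = 0.0918 and 0.0463), and Tlr4 did not without clone 21 (0.0172) or with DESeq2 (0.0297). Lysosome genes had 2 of 17, close to the 9.84% of all genes, of which an intronic peak of Ctsz (cathepsin Z) was called and one of Ctsb (cathepsin B) was not. The Ctsz call was lost without clone 21 (adjusted p = 0.0115) or 22 (0.015). Dendritic cell genes had 2 of 7, a peak 65.3 kb from Irf4 (log2 3.11, called) and one 281 kb from Id2 (1.68, adjusted p = 0.13). The called members of Ctsz, Irf4, Ccl6 and Ptgs1 reached the minimum of 20 counts only through the GM-CSF libraries.

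Few genes of other lineages could be counted, too few to set their shares apart from the 9.84% of all genes. MHC class II genes, basophil, eosinophil and mast cell genes and lymphoid genes had members at 0 of 2, 0 of 3 and 0 of 2 genes with a GM-CSF peak of 10 CPM or more. Of the erythroid and megakaryocyte list 1 of 6 had one, a peak 5.90 kb from Epor, the erythropoietin receptor gene, in an intron of Rgl3 (log2 3.03 ± 0.61 between KO lines, adjusted p = 7.42e-05, with 12 counts in SCF KO lines). Of the stem and early progenitor list 1 of 7 had one, a peak 116 kb upstream of Kit. That peak held 8.70, 11.3, 9.20 and 11.7 CPM in GM-CSF controls and at most 5.04 CPM in SCF controls, while the Kit promoter was lower in GM-CSF, as given above, and its KO counts were too few for the test.

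Single clones were read from the 2 deep GM-CSF clones. Of the 1152 peaks, 909 (78.9%) in control 21 and 996 (86.5%) in control 22 lay above all 24 SCF controls, against 14.6% and 14.9% of the 16142 GM-CSF peaks of 10 CPM or more, which follows from the choice. In the KO lines 795 (69.0%) in KO 21 and 796 (69.1%) in KO 22 lay above all 24 SCF KO lines, against 12.4% and 12.6%. In 0 of the 1152 peaks did both lines of an SCF clone reach the pooled GM-CSF control level with 3 or more counts each. This too follows largely from the choice, since the rule put that level at 4 times the SCF control pool or more. The share among other peaks was not counted. SCF clones nevertheless differed in the summed level: controls of clones 27 and 14 had 4.60 and 4.14 CPM a peak and their KO lines 3.61 and 3.64, whereas control 29 and KO 12 had the lowest, 1.96 and 1.88.

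The GM-CSF KO lines differed among themselves. Their summed level over the 1152 peaks was 8147, 11097, 17292 and 18034 CPM in clones 19, 20, 21 and 22, which is 2.95, 4.02, 6.26 and 6.53 times the median of the SCF KO lines (2763 CPM, range 2168 to 4193). Over the peaks open mainly in SCF the same lines had 9223, 7796, 4464 and 4446 CPM, so KO 19 and KO 20 were lower on the one set and higher on the other. These 2 libraries had 40876 and 39379 counts, and over distal peaks of low level they held 2.09 and 1.93 CPM a peak, against 1.65 and 1.69 in KO 21 and KO 22. The part of depth in this difference was not tested. In bulk libraries, fewer cells with an open site and less opening per cell cannot be told apart.

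Tet2 KO and control lines of a clone were compared with edgeR, with all 56 libraries fitted together and clone as a blocking factor, over 85176 peaks with 40 or more counts. Of 1144 members tested, 0 passed an adjusted p of 0.01 in SCF clones, in GM-CSF clones or for the difference between them. The backgrounds were 0.00352% higher (3 peaks) and 0% lower in SCF clones and 0% in both directions for the other comparisons. At an unadjusted p under 0.05, 8 members were higher and 57 lower with Tet2 KO in SCF, 0 higher and 45 lower in GM-CSF clones, and 11 and 30 for the difference. These are 5.68%, 3.93% and 3.58% of the members tested, close to the 5.17%, 3.39% and 3.06% of all peaks tested. Over all peaks 1553 were higher and 2847 lower in SCF clones, 935 and 1952 in GM-CSF clones, and 1120 and 1487 for the difference. Since control counts chose the peaks, low ones in SCF and high ones in GM-CSF, these fits are a description.

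Fitted log2 differences between KO and control leaned downward. In SCF clones 754 of 1144 members (65.9%) were negative with a median of -0.15, against 61.0% and -0.09 over all peaks tested. In GM-CSF clones 868 (75.9%) were negative with a median of -0.30, against 56.9% and -0.13 over all peaks tested and 68.2% and -0.18 over the GM-CSF peaks of 10 CPM or more.

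To remove the effect of the choice, the peaks were chosen again for each clone without its own control library, which gave 1131 to 1181 peaks for SCF clones and 1207 to 1379 for GM-CSF clones. Over peaks chosen in this way, the summed CPM was lower in the KO than in the control line in 23 of 24 SCF clones, with a mean log2 difference of -0.19 ± 0.15 (SD, n = 24 clones). The exception was clone 29 at 0.22, and the lowest was clone 1 at -0.53. In the same clones the peaks open mainly in SCF, chosen likewise, had 0.07 ± 0.23, with 10 of 24 lower, and the other distal GM-CSF peaks -0.03 ± 0.21, with 13 of 24 lower. Distal peaks of low level had -0.06 ± 0.25, with 15 lower. Set against those low peaks, the members were lower in 18 of 24 clones (-0.13 ± 0.22), and as a share of all distal counts in 21 of 24 (-0.15 ± 0.15). Shifts are thus about as large as their spread between clones, and they are given without a test since they sum over the chosen peaks.

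In GM-CSF clones the same measure was lower in 4 of 4, at -0.84, -0.35, -0.01 and -0.06 in clones 19, 20, 21 and 22. The deep pairs of clones 21 and 22 were thus close to 0, and the values of clones 19 and 20 come with the shallow KO libraries described above.

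**Figure D5:**
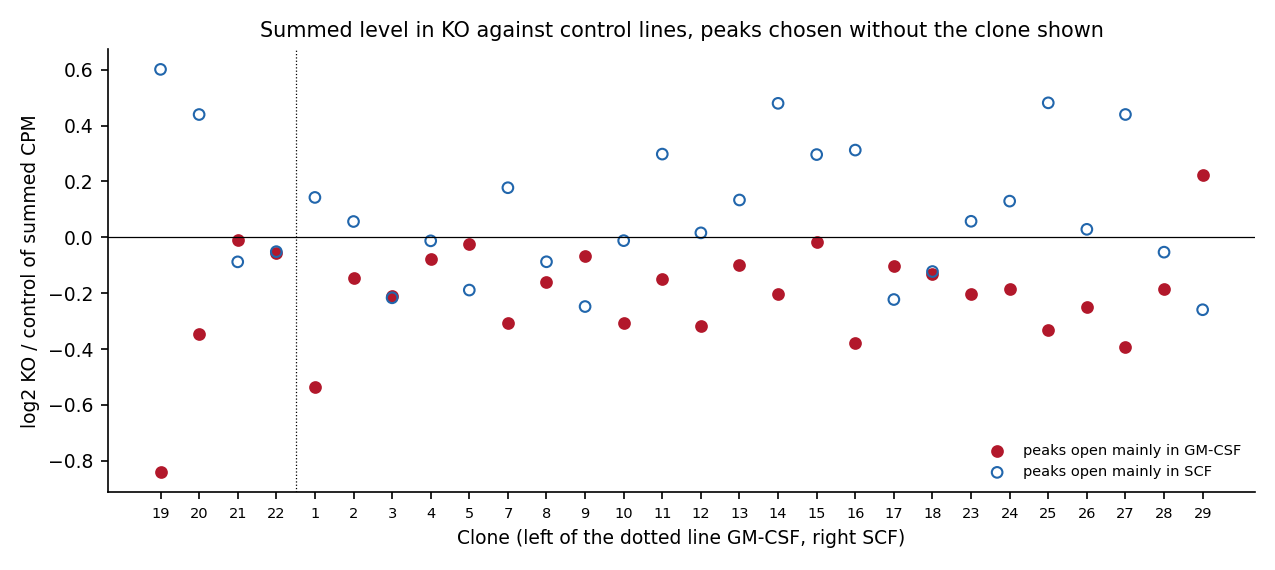
Log2 ratio of summed CPM, KO over control, per clone, over peaks chosen without the control of that clone (filled, peaks open mainly in GM-CSF, open, peaks open mainly in SCF). Filled points are below 0 in 23 of 24 SCF clones and in all 4 GM-CSF clones, between -0.53 and 0.22 in SCF and between -0.84 and -0.01 in GM-CSF.

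At single members the Tet2 comparison rested on few counts. A peak in an intron of Kcnn3, which codes for a calcium-activated potassium channel, was singled out after its values were seen: it was the 1 member called, lower, when peaks were filtered with filterByExpr, which kept 102 members (log2 -2.09 ± 0.52, adjusted p = 0.00472, against 1.63% of 12405 peaks called higher and 0.153% lower). With the filter used above its value was -2.01 ± 0.49 (adjusted p = 0.061). It held 0 to 13.0 CPM (median 3.95) in SCF controls and 0 to 5.60 CPM (median 0) in SCF KO lines, 41 and 7 counts in all, and was lower in the KO line of 16 of 24 clones. Its GM-CSF pools held 31.1 CPM in controls and 21.3 CPM in KO lines.

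The members that were lower in GM-CSF than in SCF KO pools were 7, of which the 5 with the largest fall lay in introns of Cplx1 and Trem1, an amplifying receptor of myeloid cells, in an intron of Arhgap26, 67.4 kb upstream of Tfec and at the promoter of Inpp5j, an inositol phosphatase. Each held 1 or 2 counts over the 4 GM-CSF KO libraries. At this depth a fall of such peaks cannot be told from counting error.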

How the data were processed

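The study deposited 1 matrix of raw counts per peak for 56 libraries, and the authors had applied no normalization to these counts. Alignment, per the labels, was to mm10 and used Bowtie2, SAMtools and Picard (their versions: not given in the sources used here). From MACS2 summits of single-cell ATAC-seq data and public ImmGen peaks the authors built the 301 bp peak set, so peaks open only in these clones may be absent from it. Whether fragments or insertions were counted and how duplicates were treated is not given there, and counting errors cover the counts as deposited.

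Peak positions were read against GENCODE vM21 basic genes (GRCm38, the assembly of mm10), and each peak was given to the protein-coding gene with the nearest transcription start site, which names a neighbour and not a target. Groups came from the labels. CPM are counts of a library or pool rescaled to a total of 1000000. The main tests were quasi-likelihood tests (edgeR 4.0.16, R 4.3.3) with TMM scaling and Benjamini-Hochberg adjustment over all peaks tested, at 0.01. GM-CSF and SCF KO lines were compared over peaks with 20 or more counts, and KO with control lines over peaks with 40 or more counts with the clone as a block. Lines of a clone descend from 1 cell, which is where the pairing comes from: the correlation across genes between sister lines, each centred within its group, had a median of 0.113 in SCF clones (range -0.083 to 0.434), against -0.005 between other lines, and 0.049 in GM-CSF clones. DESeq2 1.42.0 was an alternative, other steps used Python 3.11.15 (pandas 2.3.3, numpy 2.4.6, scipy 1.17.1, matplotlib 3.10.9), and the fits were tested on simulated data.

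Named peaks are the 12 of highest GM-CSF level, the 10 of largest ratio, the 10 of smallest p between KO lines, the highest of each gene with 4 members and of each listed gene, up to 5 lower in GM-CSF KO lines and those at the thresholds. The peak of 1 listed gene is not reported here. The rule, the gene lists (14), the motifs and the tests were chosen with earlier results of these data known. The floxed exons of Tet2 lie in no peak known to be deleted, so Tet2 counts do not check the genotype labels.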

Additional observations from a re-analysis of the deposited data

Results flagged for a closer look

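In 3 of 62 groups of 4 GM-CSF libraries, over the named members with counts, 1 library stood apart by Dixon's criterion (its gap to the nearest of the others relative to the range), which chance gives in about 1 in 20 groups. At the Lpin1 peak, control 20 held 68.0 CPM (6 counts), and at the Sh2d7 peak, control 19 held 17.4 CPM (2 counts), each above the other GM-CSF controls. At the peak in Hivep3 nearest to AL607142.1, KO 19 held 24.5 CPM (1 count), below the other GM-CSF KO lines. All 3 rest on the shallow libraries of clones 19 and 20.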

How the results depend on the processing

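Raising the GM-CSF threshold to 20 CPM left 272 of the 1152 peaks. Other choices gave 1102 to 1432 peaks, of which 778 (equal weight for each library) to 1122 were among the 1152, and leaving out 1 GM-CSF clone gave 1207 to 1379, with 858 of the 1152 kept without clone 22 and 981 without clone 21. The count at 4 times or more in KO pools ran from 643 (equal weight) to 894, and from 807 to 894 when 1 GM-CSF clone was left out. Calls between GM-CSF and SCF KO lines (635) fell to 361 with DESeq2, which gave no adjusted p for 232 of 1026 members, to 415 with SCF clones 23 to 29, to 179 of 210 tested with a minimum of 50 counts, and to 3 of 3 tested with filterByExpr. Over all peaks tested, 778 were higher with DESeq2, 990 of 29150 with SCF clones 23 to 29, 825 of 27403 with the minimum of 50 counts and 267 of 9670 with filterByExpr. In the main test 1391 of 73777 were. Leaving out 1 GM-CSF clone gave 222 members (without 21, 328 of 67783 over all peaks) to 646 (without 19, 1481 of 73109). An adjusted p of 0.05 gave 783 (2368 of 73777). Fewer peaks were tested under both filters. In Tet2 KO against control, filterByExpr called 1 member, Kcnn3, in SCF clones, and over all peaks 202 higher and 19 lower of 12405, against 3 and 0 of 85176. Without the replicate block, 0 members were called in SCF clones, in GM-CSF clones and for their difference, so the block changed no call of a member. Over all peaks, 0 were called in SCF clones without the block, against 3 with it. Of 76 named members tested, 54 were called, against 635 of all 1026 members and 1391 of all 73777 peaks tested. Named members include the 10 of smallest p in this same test, so part of the 54 follows from the choice. In 6 of those 10 the minimum of 20 counts was reached only through the GM-CSF libraries. Over the alternatives of the named members 747 values kept direction and side of the threshold, 52 lost the call and 8 gained it. Inpp5j turned to 0.095 on the log2 scale without clones 19 and 20, an alternative chosen after seeing the data. Depth limits single peaks to a median of 13 counts over the GM-CSF KO libraries.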

Other observations

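Beyond the autosomes, 4 of 297 X chromosome peaks with 10 CPM or more in the GM-CSF control pool met the ratio of 4 times, and they were left out by the rule. In the Tet2 comparison in SCF clones, 263 of 371 members with a C/EBP match (70.9%) had a negative fitted log2 difference, with a median of -0.20, and 491 of 773 without a match (63.5%), with a median of -0.13. The difference between them was not tested. In KO lines, 219 of 333 members with a C/EBP match (65.8%) and 416 of 693 without one (60.0%) were higher in GM-CSF. The median log2 differences were 2.41 and 2.29. Over all members tested 61.9% were higher (median 2.35), and over all peaks tested 1.89% (median -0.14). Of the 1026 members tested, only 539 reached the minimum of 20 counts in the SCF KO libraries alone, and 286 of those were higher. The difference between members with and without a match was not tested here either. SCF control 27 had both the highest summed level over the peaks open mainly in GM-CSF (5300 CPM) and the lowest over the peaks open mainly in SCF among SCF controls (15238 CPM). It held 115105 counts and, over distal peaks of low level, 1.98 CPM a peak, against a median of 1.58 in SCF controls. Its KO line, with 347979 counts, had 4164 and 20320 CPM over the same sets. The part of depth in this was not tested.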
